A study of Mus musculus with 9 samples.

Results

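The 10 genes described here are grouped as macrophage and monocyte genes. Their Argonaute-bound RNA gave a higher array signal in T cells kept with syngeneic dendritic cells than in T cells from both stimulated cultures. They are Csf1r, C5ar1, Marco, Clec7a, Lyz1, Lyz2, C1qb, Chil3, Gpnmb and Aif1, 10 of 18193 genes measured. They were picked for that order on these arrays, so their differences from syngeneic culture are given as descriptions with no test. The rule set no minimum size for the difference. It took each probe set whose platform annotation names a single gene, which gave 19 probe sets, and each gene is represented below by its brightest one on average.

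C57BL/6 T cells from 3 kinds of culture were compared after 24 h. In allogeneic culture the T cells met dendritic cells from BALB/c mice at 20 T cells per dendritic cell. In anti-CD3/CD28 culture the stimulus was 0.1 µg/ml of antibody against each of CD3e and CD28, and no dendritic cells are named for it. In syngeneic culture they were kept with dendritic cells of their own strain, also at 20 T cells per dendritic cell. All cells were then incubated with CD11c microbeads and T cells were isolated by magnetic negative selection, crosslinked with ultraviolet light and lysed, and RNA was recovered with an antibody to Argonaute (AGO), the protein that carries microRNAs. Each culture had 3 arrays, labelled biological replicates 1 to 3 with no animal or culture named, so p-values measure only the spread between these arrays. Neither unstimulated T cells nor RNA from before the immunoprecipitation was analysed here. A lower signal can therefore stand for fewer macrophages among the purified cells, less RNA per cell or less binding to AGO, which cannot be told apart.

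Macrophages and monocytes depend on signalling through the receptor tyrosine kinase encoded by Csf1r, which binds the growth factors CSF1 and IL-34. They take up particles through scavenger receptors and C-type lectins, tag targets with complement, and digest what they engulf with lysozyme and lysosomal enzymes. Several of these genes are not restricted to macrophages: monocyte-derived dendritic cells and neutrophils are also known to use lysozyme M, the C5a receptor and the lectin dectin-1.

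Lyz1 and Lyz2 encode the pair of mouse lysozymes and are neighbours on chromosome 10 with 0 genes listed between them, so their sequences are shown to make plain how alike they are. The windows below run from 250 bases before to 50 after the gene start in RefSeq (GRCm38.p6), on the minus strand, at chr10:117292819-117293118 for Lyz1 and chr10:117282223-117282522 for Lyz2. Capitals mark the letters TTGCNNAA, a form of the site of C/EBP factors, searched on both strands.
Lyz1: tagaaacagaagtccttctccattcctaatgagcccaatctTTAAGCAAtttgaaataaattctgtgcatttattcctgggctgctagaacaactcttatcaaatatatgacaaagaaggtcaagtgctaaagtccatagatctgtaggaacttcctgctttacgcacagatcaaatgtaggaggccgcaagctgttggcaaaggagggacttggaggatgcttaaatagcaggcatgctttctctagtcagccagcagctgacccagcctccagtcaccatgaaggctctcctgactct
Lyz2: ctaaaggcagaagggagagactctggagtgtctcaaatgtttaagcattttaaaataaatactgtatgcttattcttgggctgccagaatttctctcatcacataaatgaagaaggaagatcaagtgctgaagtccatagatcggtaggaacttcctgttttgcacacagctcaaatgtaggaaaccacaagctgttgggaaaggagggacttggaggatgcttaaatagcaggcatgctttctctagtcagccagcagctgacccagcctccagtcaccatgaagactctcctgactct
In a global alignment 254 of 290 columns without gaps were identical (87.6%), and the longest run shared exactly was 86 bases, across the start of both genes. Transcripts and probes of both genes were not compared here, so whether their probe sets share hybridising RNA was not tested and each is reported as uncertain on its own.

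A second pair of windows shows the letters GAGGAA, the core of the box bound by the macrophage factor PU.1, in capitals. They lie at chr1:120504975-120505274 for Marco and chr4:136886151-136886450 for C1qb, both on the minus strand.
Marco: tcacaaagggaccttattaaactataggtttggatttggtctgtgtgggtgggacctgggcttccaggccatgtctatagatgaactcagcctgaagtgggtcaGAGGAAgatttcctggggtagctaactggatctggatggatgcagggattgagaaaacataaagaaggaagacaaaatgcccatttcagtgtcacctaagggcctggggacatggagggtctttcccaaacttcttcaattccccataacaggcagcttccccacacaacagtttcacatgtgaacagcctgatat
C1qb: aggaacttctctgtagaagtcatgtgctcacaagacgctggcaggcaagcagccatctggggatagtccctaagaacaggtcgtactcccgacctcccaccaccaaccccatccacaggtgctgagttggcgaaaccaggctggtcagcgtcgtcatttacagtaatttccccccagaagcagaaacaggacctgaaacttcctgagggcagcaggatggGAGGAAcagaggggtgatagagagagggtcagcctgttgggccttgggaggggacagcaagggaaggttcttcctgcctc
Windows were listed for 9 of the 10 genes, all but Csf1r. On either strand GAGGAA occurred in 4 of the 9 genes (Marco, C1qb, Clec7a and Aif1), against 28.3% of 32851 mouse windows of the same length, and TTGCNNAA in 1 of the 9, against 10.8%. The 2 motifs did not overlap in any of these windows, and a match of letters is not a bound site.

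The replicate numbers paired the arrays, so differences are given within each number. Array medians lay between 4.58 and 5.67 on the log2 scale. The allogeneic and anti-CD3/CD28 arrays numbered 1 stood apart as near copies: 51.3% of their probe sets had exactly equal values and the SD of their log2 difference was 0.0973, against 0.473 and 0.756 for the same pair in numbers 2 and 3. Values exactly equal between arrays of one number occurred in every pair, down to 20.9%, and an exact tie is therefore weak evidence of no change. T cell identity was checked first. All 11 measured genes of that list lay above the array median on all 9 arrays, with Cd3e at 11.09, 10.41 and 11.26 in allogeneic, 10.94, 10.72 and 11.45 in anti-CD3/CD28 and 11.01, 10.31 and 11.36 in syngeneic culture. The label of macrophage genes was checked against 9 measured surface markers of macrophages and monocytes: 0 of the 9 lay above the array median on all 3 arrays of any culture, and the medians of the list were −0.35 in allogeneic and −0.62 in anti-CD3/CD28 culture against syngeneic culture. Itgam, Cx3cr1 and Vsig4 did not exceed the array median on any of the 9. Adgre1, which encodes F4/80, was highest in syngeneic culture in every number, at 4.29, 4.74 and 4.93 in allogeneic, 4.21, 4.71 and 3.25 in anti-CD3/CD28 and 4.63, 5.05 and 6.55 in syngeneic culture. In number 3 the monocyte receptors Cd14 and Ccr2 gave 6.42 and 6.86 in allogeneic, 3.85 and 4.88 in anti-CD3/CD28 and 7.56 and 7.75 in syngeneic culture. But Cd14 was 4.34 in all 3 cultures in number 1, and Ccr2 was 4.90 in all 3 in number 2. Timd4 of the same list was lowest in syngeneic culture in number 3, at 3.90, 3.61 and 3.56 in that order of cultures. The name macrophage genes below is therefore a label for the group, since the surface markers of macrophages were above the median on some arrays only.

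On their representative probe sets all 10 genes were highest in syngeneic culture within every replicate number, which is the order they were picked for, and the sizes differed widely. In allogeneic against syngeneic culture the median log2 difference of the 10 genes was −2.16, with −1.59, −1.74 and −2.52 within numbers 1, 2 and 3, beside 0.03 for all genes. In anti-CD3/CD28 against syngeneic culture it was −2.54, with −1.45, −2.41 and −4.02, beside 0.00 for all genes. Both comparisons use the same syngeneic arrays and are not independent. All 10 genes were lower in every number in both comparisons, which held for 7.96% of all genes in the first and 9.15% in the second. Overlap was judged on log2 signals with no correction for array medians, which differ between numbers, unless stated. On these signals the 3 arrays of each culture did not overlap for 5 of the 10 genes in allogeneic culture (0.451% of all genes) and for 6 of the 10 in anti-CD3/CD28 culture (1.52%). These shares come from the comparisons that chose the genes. Lyz1 and Lyz2 are counted separately in each, although whether their probe sets share hybridising RNA was not tested.

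**Figure D1:**
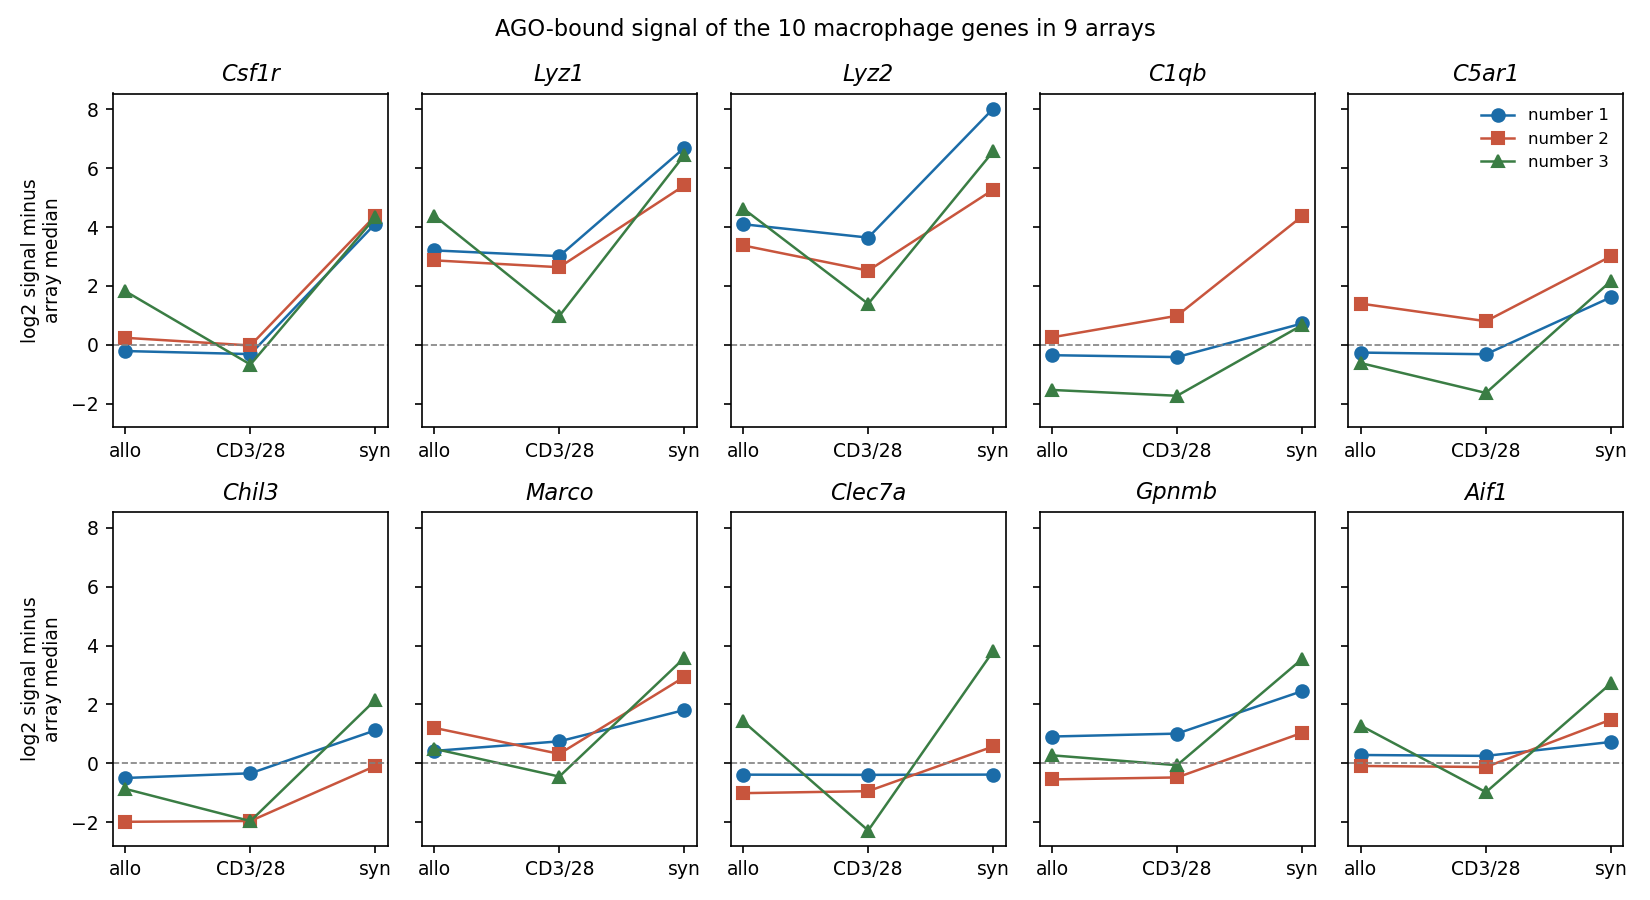
Log2 signal minus the array median (vertical axis) of each macrophage gene in allogeneic (allo), anti-CD3/CD28 (CD3/28) and syngeneic (syn) culture, with one line for the 3 arrays of each replicate number and a dashed line at the array median. Csf1r lay 4.12 to 4.39 above the median on the syngeneic arrays and at most 1.82 above it on the others, while C1qb was high in syngeneic number 2 and Clec7a in syngeneic number 3.

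Csf1r, the receptor on which macrophage survival depends, had the lowest difference of all 18193 genes in both comparisons that chose it. It gave log2 signals of 4.37, 5.91 and 6.63 on the allogeneic arrays numbered 1, 2 and 3, of 4.28, 5.58 and 4.26 on the anti-CD3/CD28 arrays, and of 8.71, 9.99 and 9.21 on the syngeneic arrays. Every syngeneic array was above every stimulated one, and the stimulated arrays lay near the array median except allogeneic number 3. The log2 difference was −3.67 ± 0.74 (SE, n = 3 each) in allogeneic and −4.60 ± 0.74 in anti-CD3/CD28 culture against syngeneic culture. Both differences and the rank rest on the representative probe set. With the mean of all Csf1r probe sets the differences were −1.37 and −1.81 in the same order of cultures. Since 4 of the 6 stimulated arrays lay at or under the array median, where signal and background are hard to separate, these sizes are not exact.

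C5ar1, the receptor for the complement fragment C5a, stood at 4.32, 7.07 and 4.19 in allogeneic, 4.27, 6.40 and 3.30 in anti-CD3/CD28 and 6.21, 8.61 and 7.04 in syngeneic culture. Within each number the syngeneic array was the highest, but in log2 signal allogeneic number 2 lay above syngeneic number 1. Relative to the array median, which differs between numbers, these 2 stood at 1.40 and 1.62, without overlap. The mean differences were −2.09 ± 0.99 in allogeneic and −2.63 ± 0.99 in anti-CD3/CD28 culture (SE, n = 3 each).

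Marco, a scavenger receptor that binds bacteria and particles, gave 5.01, 6.87 and 5.30 in allogeneic, 5.34, 5.92 and 4.48 in anti-CD3/CD28 and 6.40, 8.53 and 8.45 in syngeneic culture. It was above the array median on 8 of the 9 arrays, all but anti-CD3/CD28 number 3. In log2 signal only the anti-CD3/CD28 arrays were separate from the syngeneic ones, as allogeneic number 2 lay above syngeneic number 1. Relative to the array median these 2 stood at 1.21 and 1.81. The differences were −2.07 ± 0.78 in allogeneic and −2.55 ± 0.78 in anti-CD3/CD28 culture.

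Clec7a, which encodes the beta-glucan receptor dectin-1, differed widely between replicate numbers. It stood at 4.20, 4.65 and 6.23 in allogeneic, 4.20, 4.65 and 2.65 in anti-CD3/CD28 and 4.21, 6.17 and 8.69 in syngeneic culture. In number 1 all 3 cultures lay under the array median and differed by at most 0.01 (log2), whereas in number 3 the syngeneic array exceeded the allogeneic one by 2.45 and the anti-CD3/CD28 one by 6.04. The mean differences of −1.33 ± 1.00 in allogeneic and −2.52 ± 1.00 in anti-CD3/CD28 culture thus come from numbers 2 and 3. Without syngeneic replicate 3 they were −0.16 and −1.36, and without syngeneic replicate 1 the allogeneic one was −2.40. Without all arrays numbered 3 both were −0.76.

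The lysozymes, secreted and granule enzymes that cut bacterial cell walls, were the brightest of the 10 genes. Lyz2 gave 8.68, 9.04 and 9.44 in allogeneic, 8.23, 8.12 and 6.32 in anti-CD3/CD28 and 12.61, 10.87 and 11.44 in syngeneic culture. Lyz1 gave 7.79, 8.54 and 9.20 in allogeneic, 7.60, 8.24 and 5.91 in anti-CD3/CD28 and 11.28, 11.01 and 11.32 in syngeneic culture. The syngeneic arrays lay above all stimulated ones for both genes, while the allogeneic and anti-CD3/CD28 arrays overlapped for Lyz1, and both genes stayed above the array median on all 9 arrays, so their differences are not set by the lower end of the scale. For Lyz2 the differences were −2.59 ± 0.63 in allogeneic and −4.08 ± 0.63 in anti-CD3/CD28 culture. For Lyz1 they were −2.70 ± 0.64 and −3.95 ± 0.64 in the same order of cultures. On the syngeneic arrays Lyz1 and Lyz2 stood between the 98.3rd and the 99.5th percentile of all probe sets.

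C1qb, which encodes a chain of the complement component C1q, followed another pattern over the numbers. It stood at 4.23, 5.92 and 3.28 in allogeneic, 4.18, 6.59 and 3.20 in anti-CD3/CD28 and 5.32, 9.97 and 5.54 in syngeneic culture. Syngeneic number 2 was 4.37 above its array median and the other 2 syngeneic arrays 0.73 and 0.67 above theirs. The mean differences were −2.46 ± 1.22 in allogeneic and −2.29 ± 1.22 in anti-CD3/CD28 culture. Without syngeneic replicate 2 they were −0.95 and −0.78. C1qc, which encodes a partner chain, was likewise highest in syngeneic number 2, at 6.89, and C1qa did not exceed the array median on any of the 9 arrays.

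Chil3, the secreted chitinase-like protein Ym1 of mouse macrophages, did not exceed the array median on any stimulated array. It gave 4.09, 3.68 and 3.94 in allogeneic, 4.25, 3.64 and 2.97 in anti-CD3/CD28 and 5.71, 5.51 and 7.03 in syngeneic culture. The syngeneic arrays lay above all stimulated ones, the stimulated cultures overlapped, and 7 of the 9 arrays, among them syngeneic number 2, lay at or under the array median. The differences of −2.18 ± 0.57 in allogeneic and −2.46 ± 0.57 in anti-CD3/CD28 culture are therefore not exact. A probe set that the annotation assigns to both Chil4 and Chil3 was not used.

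Gpnmb, a transmembrane glycoprotein of phagocyte lysosomes, gave 5.50, 5.12 and 5.08 in allogeneic, 5.60, 5.12 and 4.87 in anti-CD3/CD28 and 7.04, 6.64 and 8.42 in syngeneic culture. The syngeneic arrays were separate from both others, and the stimulated cultures were close to each other in every number. The differences were −2.13 ± 0.63 in allogeneic and −2.17 ± 0.63 in anti-CD3/CD28 culture. Aif1, the calcium-binding protein IBA1 used to stain macrophages and microglia, gave 4.87, 5.58 and 6.09 in allogeneic, 4.85, 5.47 and 3.95 in anti-CD3/CD28 and 5.32, 7.09 and 7.59 in syngeneic culture. In log2 signal its groups overlapped because syngeneic number 1 was low. Relative to the array median only allogeneic number 3 lay above syngeneic number 1, at 1.28 against 0.73. The Aif1 differences of −1.15 ± 0.72 in allogeneic and −1.91 ± 0.72 in anti-CD3/CD28 culture were the smallest of the 10. Without syngeneic replicate 3 the allogeneic difference was −0.69, without syngeneic replicate 1 it was −1.83, and without all arrays numbered 3 the anti-CD3/CD28 one was −1.04.

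Only part of the probe sets showed these differences. Of the 19, 14 were lower in both stimulated cultures in every number: the 10 that stand for the genes and 4 of the 9 others. The additional Lyz1 probe set 1439426_x_at followed the first, at −2.60 in allogeneic and −3.73 in anti-CD3/CD28 culture against syngeneic culture. A second C1qb probe set, 1434366_x_at, differed by −1.58 and −1.59, and the second one of Gpnmb, 1439345_at, by −0.73 and −0.77 at levels under the array median throughout. The second Csf1r probe set, 1419873_s_at, differed by −0.49 and −0.85.

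The 5 other probe sets were close to flat on average, with mean differences between −0.26 and 0.10. Csf1r probe set 1423593_a_at differed by 0.04 in allogeneic and 0.02 in anti-CD3/CD28 culture, and Lyz1 probe set 1450822_at by 0.10 and 0.05. The second C5ar1 probe set, 1422190_at, and the third C1qb one, 1417063_at, lay under the array median on all 9 arrays. In number 2 this C1qb probe set differed by −0.46 in allogeneic and −0.77 in anti-CD3/CD28 culture. The second Marco probe set, 1458297_s_at, was equal in the 3 cultures in 2 numbers and differed by −0.39 in both comparisons in number 3. Of the 57 pairs of a probe set and a number, 14 had exactly equal values in allogeneic and anti-CD3/CD28 culture and 8 in all 3 cultures. The flat Lyz1 probe set is set beside the Lyz2 one in the same way: after centring within numbers, Pearson's r over the 9 arrays was −0.25 between them, and 0.99 between the Lyz2 probe set and each of the other 2 of Lyz1. These r describe arrays that share numbers and normalisation and carry no test. Probe sets with the ending x_at are those the maker marks as likely to bind related transcripts.

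**Figure D2:**
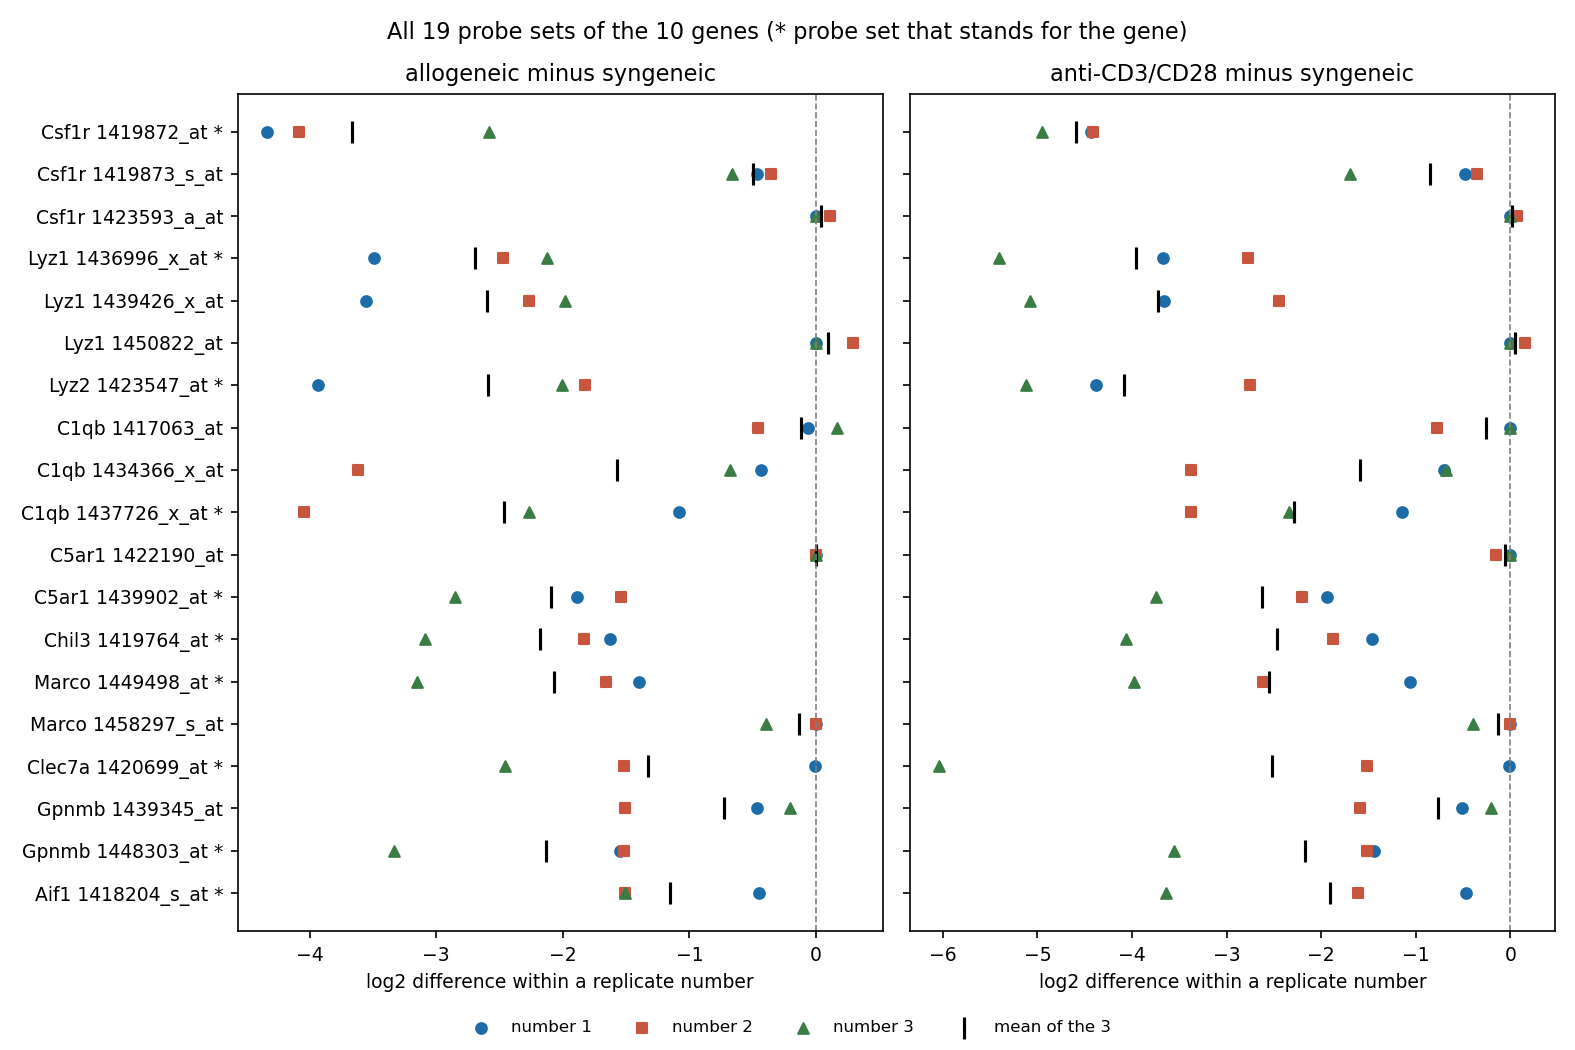
Log2 difference within each replicate number (points) and their mean (bars) for all 19 probe sets, allogeneic minus syngeneic on the left and anti-CD3/CD28 minus syngeneic on the right, with a dashed line at 0. The probe sets marked with an asterisk stand for their gene and lie left of 0, and 5 probe sets of Csf1r, Lyz1, C1qb, C5ar1 and Marco have means between −0.26 and 0.10.

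The genes resembled each other over the 9 arrays to differing degrees. After each gene was centred within its replicate number, Pearson's r with the mean of the other 9 genes ran from 0.82 for C1qb and 0.82 for Clec7a to 0.98 for C5ar1 and 0.98 for Chil3. These values are descriptive, since the choice of genes that are high in the same 3 arrays fixes much of the likeness.

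Whether the genes differ between the stimulated cultures was not part of the rule, so allogeneic against anti-CD3/CD28 culture was tested. The median log2 difference of the 10 genes was 0.65, beside 0.04 for all genes, with 0.04, 0.20 and 1.56 within numbers 1, 2 and 3. In limma 0 of 18193 genes were called at an adjusted p of 0.05, with or without a replicate block (0.0% each), and none of the 10 genes was. Without the block 24 genes (0.132%) had an unadjusted p under 0.05, of which Lyz2 was one, and with it 205 (1.13%), of which none was among the 10. Higher signals in allogeneic culture in every number were seen for 5 of the 10 genes (Csf1r, Lyz1, Lyz2, C5ar1 and Aif1), against 4.39% of all genes, although in number 1 these 5 differences were at most 0.45. Lower signals in every number were seen for 0 of the 10, against 2.58%.

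Lyz2 averaged 9.05 ± 0.38 in allogeneic and 7.56 ± 1.07 in anti-CD3/CD28 culture (SD, n = 3 each). Its arrays did not overlap in log2 signal, which held for 0.269% of all genes. Relative to the array median they did, with allogeneic number 2 at 3.38 and anti-CD3/CD28 number 1 at 3.64. In the limma fit the Lyz2 log2 difference was 1.50 ± 0.63 (SE), with an adjusted p of 1.0 and an unadjusted p of 0.034. Lyz1 differed by 1.26 ± 0.64, Clec7a by 1.19 ± 1.00, Csf1r by 0.93 ± 0.74 and Aif1 by 0.76 ± 0.72. In each of these 5 genes number 3 had the largest difference, from 2.14 in Aif1 to 3.58 in Clec7a. C5ar1, Marco and Chil3 differed by 0.54 ± 0.99, 0.48 ± 0.78 and 0.28 ± 0.57. Gpnmb and C1qb differed by 0.04 ± 0.63 and −0.18 ± 1.22, and C1qb was lower in allogeneic culture by 0.66 in number 2. The adjusted p in limma was 1.0 for each of the 10 genes. These SEs are from the fit without the replicate block, so offsets between numbers enter them. With the block the SE was 0.37 for C5ar1, 0.55 for C1qb and 1.14 for Clec7a. The lowest adjusted p of the 10 genes in limma was then 0.9275. In either fit a difference of the sizes seen cannot be told from 0 with these 3 arrays a group, nor do they show that the cultures act alike.

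**Figure D3:**
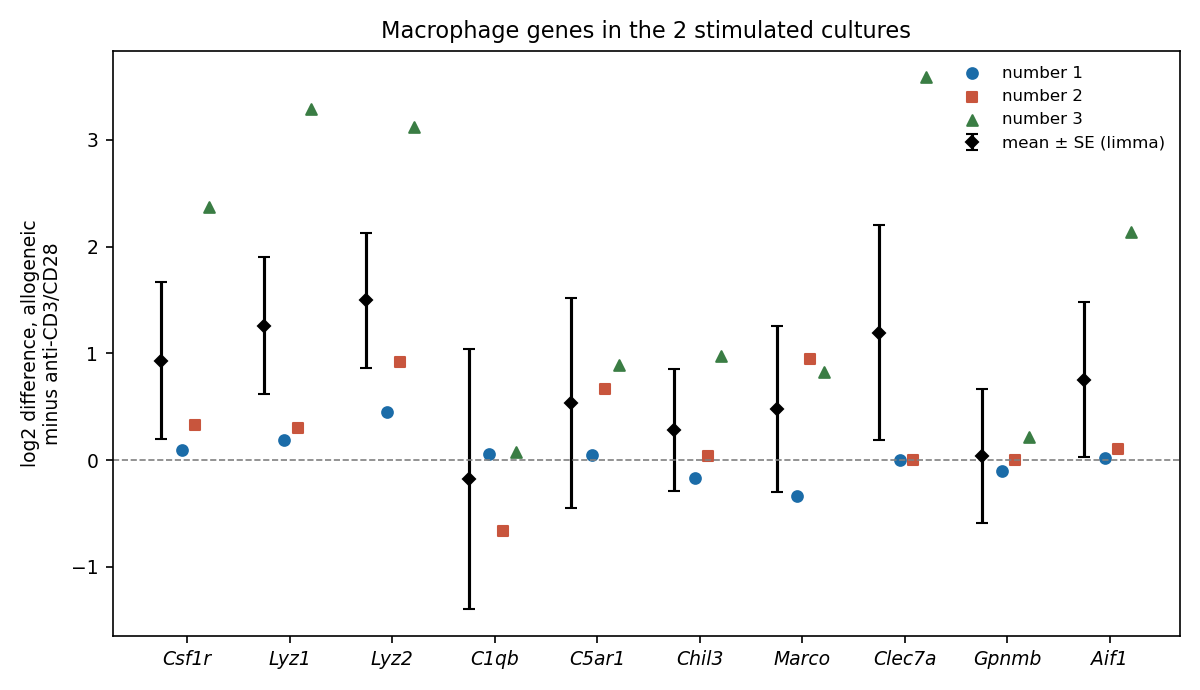
Log2 difference of each macrophage gene, allogeneic minus anti-CD3/CD28 (vertical axis), as the mean ± SE from limma (diamonds, n = 3 arrays a group) and within replicate numbers 1, 2 and 3. In number 3 all 10 genes lie above 0, from 0.08 for C1qb to 3.58 for Clec7a, and in number 1 they lie between −0.33 and 0.45.

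The size of this difference rested on the arrays numbered 3. In number 3 all 10 genes had the order syngeneic, allogeneic, anti-CD3/CD28 from high to low, against 6 in number 1 and 7 in number 2. Over all genes that order was held by 16.6% in number 3, 9.2% in number 1 and 7.31% in number 2, and whether the numbers differ was not tested. Only 2 of the 10 genes were above the array median on anti-CD3/CD28 number 3, compared with 7 on allogeneic number 3. Without the arrays numbered 3 the median difference of the 10 genes was 0.14, and without the near-identical arrays numbered 1 it was 1.00. Leaving out anti-CD3/CD28 replicate 3 alone gave 0.22, allogeneic replicate 1 alone 1.02 and anti-CD3/CD28 replicate 2 alone 1.24.

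Other genes of macrophage function were taken from 7 lists with 56 measured genes of 61. The lists were chosen by function, but with earlier results of these data known, and include the 9 surface markers above. The shares of all genes beside their counts are therefore descriptive. Limma called 0 of the 56 in any comparison, with or without the replicate block. At an unadjusted p under 0.05 without the block, 1 of the 56 was lower in allogeneic than in syngeneic culture (0.148% of all genes, either direction) and 4 of the 56 in anti-CD3/CD28 than in syngeneic culture (0.857%), and 0 were higher. Between allogeneic and anti-CD3/CD28 culture 1 of the 56 was higher and 0 were lower (0.132% of all genes, either direction). With the block 10 (4.53% of all genes) and 17 (6.79%) were lower against syngeneic culture and 0 were higher. Their median log2 difference was −0.47 in allogeneic and −0.82 in anti-CD3/CD28 culture against syngeneic culture, and 0.25 between allogeneic and anti-CD3/CD28 culture. Of the 56, 20 were lower in every number in allogeneic (7.96% of all genes) and 23 in anti-CD3/CD28 culture (9.15%).

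Of the 7 lists, that of C-type lectins, Fc receptors and their adaptors had the most genes lower in every number. Its 10 measured genes had medians of −0.51 in allogeneic and −1.23 in anti-CD3/CD28 culture against syngeneic culture, and 7 of the 10 were lower in every number in both, against 7.96% and 9.15% of all genes. Tyrobp, the adaptor DAP12 of activating myeloid receptors, gave 5.10, 7.27 and 8.95 in allogeneic, 5.25, 7.53 and 5.97 in anti-CD3/CD28 and 7.71, 9.64 and 10.01 in syngeneic culture. Clec4d, a C-type lectin of myeloid cells, gave 4.56, 6.29 and 6.96, then 4.45, 5.84 and 3.78, and then 7.57, 7.44 and 9.23 in the same order of cultures. In log2 signal, uncorrected for array medians, Clec4d was separate from syngeneic culture in both cases. It differed by −2.14 ± 0.82 in allogeneic and −3.39 ± 0.82 in anti-CD3/CD28 culture (limma adjusted p = 1.0 each). Fcer1g, the shared gamma chain of Fc receptors, and Syk, the kinase that binds such adaptors, differed by −0.32 ± 1.25 and −0.50 ± 0.97 in allogeneic and by −1.36 ± 1.25 and −1.05 ± 0.97 in anti-CD3/CD28 culture.

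Growth factor receptors and ligands did not follow Csf1r as a list, with medians of −0.06 and −0.80 in the same comparisons. Csf2rb, the common beta chain of the receptors for GM-CSF, IL-3 and IL-5, was the exception by level. It stood at 7.67, 7.57 and 10.65 in allogeneic, 7.23, 6.60 and 6.04 in anti-CD3/CD28 and 8.90, 10.20 and 11.25 in syngeneic culture. Its difference was −1.49 ± 0.86 in allogeneic and −3.49 ± 0.86 in anti-CD3/CD28 culture, and 2.01 ± 0.86 between allogeneic and anti-CD3/CD28 culture (limma adjusted p = 1.0 for each). The ligand Csf1 differed by −0.09 ± 1.00 in allogeneic and −0.96 ± 1.00 in anti-CD3/CD28 culture, and Il34, which encodes the other ligand, did not exceed the array median on any array.

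Among 7 measured transcription factors of macrophages the medians were −0.54 and −0.62. Irf8 differed by 0.13 ± 0.87 in allogeneic and −0.01 ± 0.87 in anti-CD3/CD28 culture, and Cebpb by −0.48 ± 0.70 and −1.37 ± 0.70. Spi1, which encodes PU.1, was equal in the 3 cultures in number 1, at 5.25, and in number 3 gave 7.33 in allogeneic, 4.79 in anti-CD3/CD28 and 6.64 in syngeneic culture. Of 10 lysosome and phagocytosis genes, 6 lay above the array median on all 3 allogeneic and on all 3 anti-CD3/CD28 arrays, and 8 on all 3 syngeneic ones. Ctss, a cathepsin of antigen-presenting cells, stood at 11.11, 10.79 and 11.26 in allogeneic, 10.91, 10.62 and 11.32 in anti-CD3/CD28 and 11.65, 11.20 and 11.77 in syngeneic culture. Ctss differed by −0.49 ± 0.34 and −0.59 ± 0.34, and the medians of these 10 genes were −0.56 and −0.83.

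The 8 scavenger receptor genes had medians of −0.28 in allogeneic and −0.32 in anti-CD3/CD28 culture against syngeneic culture. Scarb1 went the other way on average, by 0.71 ± 0.70 and 0.35 ± 0.70. Within number 2 it was lower in allogeneic and anti-CD3/CD28 culture, at 5.58 and 5.87 against 6.05 in syngeneic culture. Some scavenger receptor genes shared the high level of C1qb in number 2. The scavenger receptor Cd36 gave 4.11, 9.31 and 5.08 in allogeneic, 4.13, 8.74 and 4.02 in anti-CD3/CD28 and 4.25, 11.10 and 5.30 in syngeneic culture. Cd163 and Mrc1, scavenger and mannose receptors of tissue macrophages, lay above the array median only in number 2, at 7.95, 7.70 and 9.30 for Cd163 and 5.86, 6.07 and 8.13 for Mrc1 in allogeneic, anti-CD3/CD28 and syngeneic culture. Stromal genes had the same bias to number 2: Col1a2, a collagen chain, gave 9.23, 8.79 and 11.31 in allogeneic, anti-CD3/CD28 and syngeneic number 2 and 4.37 or less on the other 6 arrays. The 7 stromal genes had medians within number 2 of −1.85 in allogeneic and −2.33 in anti-CD3/CD28 culture against syngeneic culture, and 0.00, from exact ties, within numbers 1 and 3 in both. Their part in the C1qb difference of number 2 was not tested.

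Markers of other cells moved with the 10 genes in some numbers. The mean of the 14 dendritic cell genes lay 2.43 to 4.88 above the array median in allogeneic, 2.13 to 3.06 in anti-CD3/CD28 and 3.24 to 4.71 in syngeneic culture, and 12 of the 14 lay above it on every array of each culture. Within numbers 1, 2 and 3 the median of these genes differed by −0.09, −0.89 and 0.02 in allogeneic and by −0.21, −0.89 and −1.06 in anti-CD3/CD28 culture against syngeneic culture. In number 3 it was 1.41 higher in allogeneic than in anti-CD3/CD28 culture, beside 1.56 for the 10 macrophage genes. Fscn1, the actin bundler of mature dendritic cells, stood at 10.44, 9.46 and 12.16 in allogeneic, 9.97, 7.75 and 7.72 in anti-CD3/CD28 and 10.20, 10.48 and 11.59 in syngeneic culture. Its anti-CD3/CD28 difference from syngeneic culture, −2.28 ± 0.76, was the largest of the 4 brightest genes of the list. The others were Ccl22 at −1.43 ± 0.45, Cd74 at −0.75 ± 0.82 and Ccr7 at −0.09 ± 0.63. In allogeneic against syngeneic culture the medians of the 10 macrophage genes were −1.59, −1.74 and −2.52 within numbers 1, 2 and 3. Those of the dendritic cell genes were −0.09, −0.89 and 0.02, and whether these differences are linked was not tested.

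Some granulocyte genes shared the low level on anti-CD3/CD28 number 3. The mean of their 8 measured genes lay −0.04 to 0.96 above the array median in allogeneic, −0.97 to 0.11 in anti-CD3/CD28 and −0.04 to 0.93 in syngeneic culture. S100a9, a calcium-binding protein of neutrophils and monocytes, gave 9.23 in allogeneic, 3.73 in anti-CD3/CD28 and 9.25 in syngeneic culture in number 3, and 5.42 in all 3 cultures in number 1. In number 3 Mpo gave 7.35, 3.85 and 6.62 in the same order of cultures. Camp and Ltf did not share this, with 4.06 in all 3 cultures for Camp and 4.16, 4.21 and 3.80 for Ltf. In number 1 the 10 macrophage genes differed by a median of −1.59 and −1.45 from syngeneic culture, and granulocyte and stromal medians were 0.00. These 0.00 medians rest on exact ties, such as Mpo at 4.36 and Col1a2 at 4.37 in all 3 cultures, under the array median. Such ties are weak evidence of no change. The 8 B cell genes had means 1.27 to 1.98 above the array median in allogeneic, 1.12 to 2.33 in anti-CD3/CD28 and 1.54 to 2.12 in syngeneic culture, and the 4 natural killer cell genes means of −0.38 to 2.01, 0.15 to 1.91 and −0.28 to 1.89 in that order. T cell identity genes had medians of 0.03 in allogeneic and 0.28 in anti-CD3/CD28 culture against syngeneic culture. The part of dendritic cells and granulocytes in the differences of the 10 genes was not tested.

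**Figure D4:**
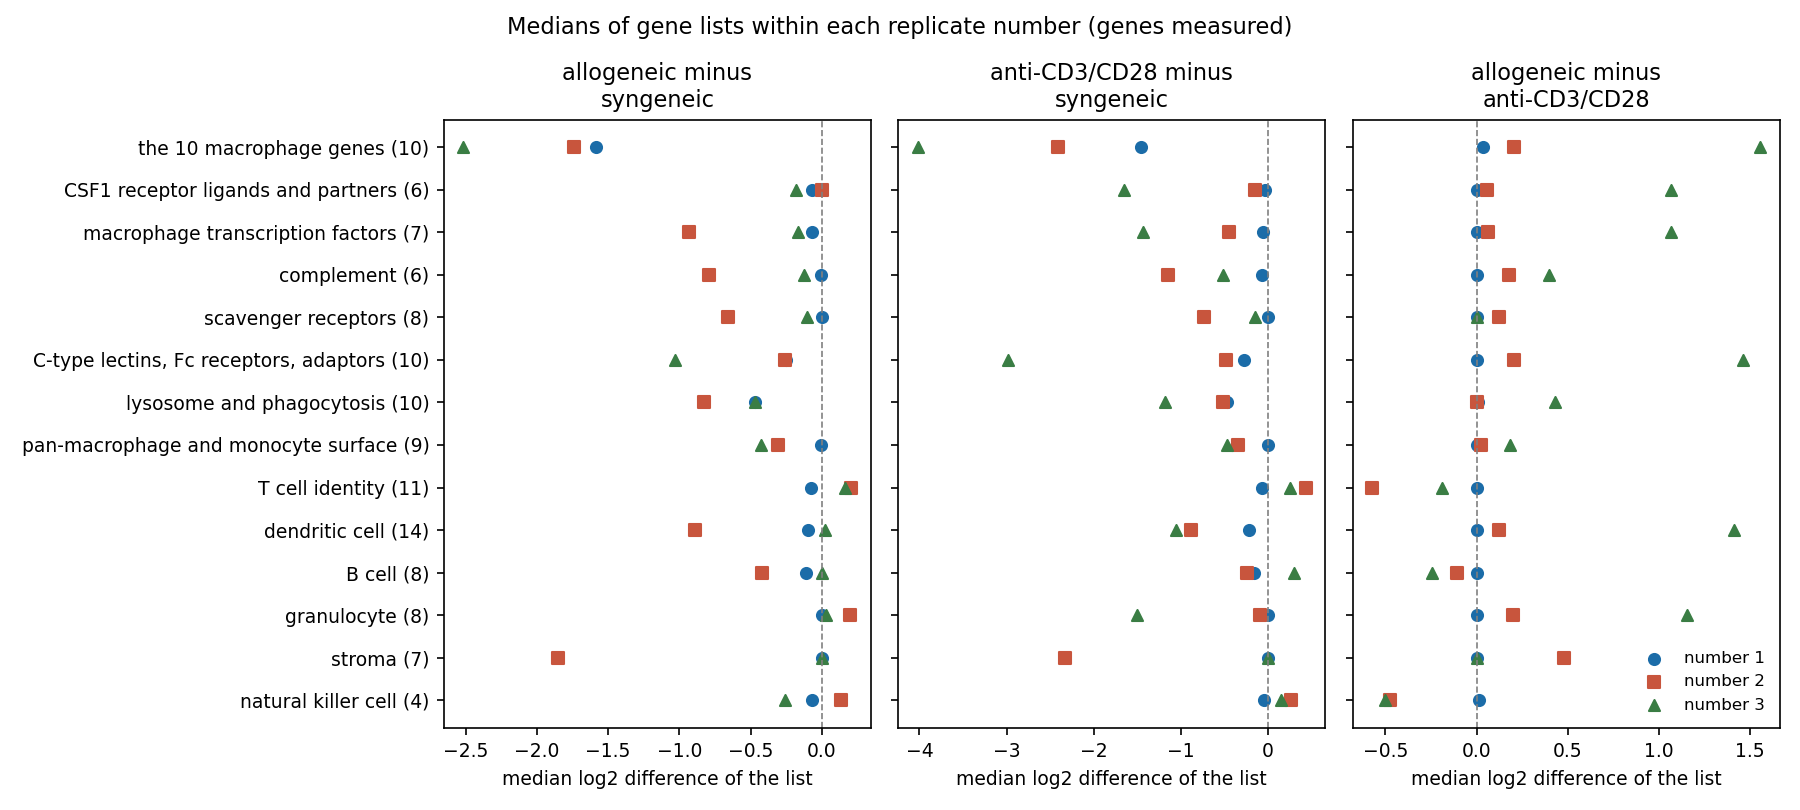
Median log2 difference of each gene list (rows, measured genes in parentheses) within replicate numbers 1, 2 and 3, for the 3 comparisons. The 10 macrophage genes lie left of 0 in all numbers against syngeneic culture, stromal genes do so only in number 2, and in the right panel the number 3 medians of macrophage, dendritic cell and granulocyte genes are 1.56, 1.41 and 1.15.

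Among all genes, 8850 brighter than the median gene were compared with the mean profile of the 10 genes, centred within numbers, and 180 had Pearson's r over 0.9 over the 9 arrays. The 8 most alike were Frmd4a (r = 0.99), Gstm1 (0.99), Wdfy2 (0.98), Man1c1 (0.98), Atxn2 (0.98), Tnrc18 (0.98), Nr2c2 (0.98) and Maf (0.98), of which Maf is also in the list of macrophage transcription factors. Their differences were smaller than those of most of the 10 genes. Frmd4a gave 6.19, 6.65 and 6.59 in allogeneic, 6.29, 6.62 and 6.15 in anti-CD3/CD28 and 7.11, 7.74 and 7.71 in syngeneic culture, separate in both cases. Maf, a transcription factor of macrophages and of some T cells, differed by −0.97 in allogeneic and −1.54 in anti-CD3/CD28 culture against syngeneic culture, and Nr2c2 by only −0.15 and −0.23. The r values rest on arrays that share numbers and normalisation.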

How the data were processed

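RNA bound to AGO in purified mouse T cells was hybridised to 9 expression arrays, 3 for each culture. The deposited table holds log2 signals per probe set, made by the authors with RMA per the submitters' processing notes (version not given in the sources used here), and was used as deposited. The table has 45101 probe sets. Left out were 64 controls, 932 that the annotation assigns to more than 1 gene and 9160 it assigns to none. The other 34945 were named from the platform annotation, 34741 of them with symbols updated by gene ID, giving 18193 genes, each taken from the probe set brightest on average over the arrays. Differences were fitted with limma 3.58.1 in R 4.3.3 (1 mean per culture, all 9 arrays, intensity trend, Benjamini-Hochberg adjustment over all genes, threshold 0.05). The fit was also run on simulated data. Unlike these arrays, the simulated ones had no offsets between numbers and no exact ties, so they do not check the fit here. Alternatives were the replicate block, quantile normalization, median-centred arrays, dim genes left out (40th percentile), other probe set rules, no trend, and arrays left out. The number of arrays limits precision.

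The numbers pair the arrays: after removal of culture means, r was 0.811 to 0.921 for the 9 pairs of one number. The SEs printed are from the fit without the block unless the block is named. Over all genes the median SE was 0.639 in that fit and 0.156 with the block. Genes named are the 10 members, some of the 4 brightest of each list, and the 8 most alike. Others of a list were chosen after their values were seen (C1qa, C1qc, Il34, Spi1, Cd163, Mrc1, Itgam, Cx3cr1, Vsig4, Timd4, Camp, Ltf). Not all of the 4 brightest of a list are printed, and no gene of the B cell and natural killer cell lists is named. The members and lists were chosen with earlier results of these data known. Promoter windows are RefSeq's (GRCm38.p6).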

Additional observations from a re-analysis of the deposited data

How the results depend on the processing

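In limma the count of called genes was 0 in every comparison under the replicate block (0, 0 and 0) and under each other alternative, except with arrays centred on their medians, where 1 gene, Csf1r, was called lower in anti-CD3/CD28 than in syngeneic culture, a comparison that chose it. The block changed no call of the 10 genes, and differences are the same with it. The median of the 10 genes in allogeneic against syngeneic culture was −1.38 with the mean of all probe sets, which takes in the flat ones, and −2.61 to −1.98 when 1 array was left out. In anti-CD3/CD28 against syngeneic culture it was −3.21 to −2.07 without 1 array, and between the stimulated cultures 0.22 to 1.24, or 0.36 with the mean of all probe sets. Between allogeneic and anti-CD3/CD28 culture small differences changed sign. Without 1 array C1qb ran from −0.90 to 0.79, C5ar1 from −0.40 to 1.41, Chil3 from −0.044 to 0.60, Marco from −0.0913 to 0.84 and Gpnmb from −0.13 to 0.24. Gpnmb was −0.0298 with quantile normalization, −0.0108 with median-centred arrays and −0.0528 without the arrays numbered 3, where Chil3 was −0.0627, and C1qb was 0.0669 without the arrays numbered 2. The cause of these changes was not tested. Fits without the arrays numbered 2 or 3, and the block without those numbered 1, were added after the data were seen. Chil3 was dropped where dim genes were left out. Without detection calls, levels near the array median cannot be told from background.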
